A study of Mus musculus with 6 samples.

Results

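The cyclic AMP pathway that holds the mouse oocyte in meiotic arrest is described here through 10 genes: Gpr3, Gnas, Adcy3, Adcy9, Pde3a, Prkaca, Prkacb, Prkar1a, Prkar2b and Gja4. They were chosen by gene name, with earlier results of these data already known, and each matched 1 Ensembl gene among the 60193 genes listed. The samples were metaphase II (MII) oocytes of ICR mice aged 42 to 45 weeks, an outbred stock close to the end of its reproductive life at that age. All mice received PMSG, a hormone that drives follicle growth. In the IVM group (n = 3), oocytes were taken from antral follicles 46 h later, stripped of cumulus cells with a narrow pipette and matured in M16 medium for 12 h. In the IVO group (n = 3), mice also received hCG, which triggers ovulation, and ovulated oocytes were collected from the oviduct 14 h afterwards and freed of cumulus cells with hyaluronidase. Each sample pooled 20 oocytes from 3 mice, so no value belongs to a single oocyte or animal, and the groups differ in hormone, cumulus contact, medium and timing together.

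A fully grown oocyte makes its own cyclic AMP. The receptor GPR3 activates the stimulatory G protein encoded by Gnas, which activates adenylyl cyclase, and cyclic AMP then releases the catalytic subunits of protein kinase A (PKA) from its regulatory subunits. Active PKA keeps CDK1, the kinase that drives the resumption of meiosis, switched off. Cyclic GMP arrives from the follicle cells through gap junctions built in part from connexin 37, the product of Gja4, and inhibits PDE3A, the phosphodiesterase that degrades cyclic AMP. When luteinizing hormone stops this supply, or when the oocyte is removed from the follicle, cyclic AMP falls and meiosis resumes. MII oocytes are past this step and transcribe little, so the values below come from the transcripts that they still held. The library kit primes on poly(A) tails, so only transcripts with a tail that it could catch were counted. The amount of a transcript and a change of its tail cannot be told apart in these values.

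Expression was given as FPKM, which divides the fragments of a gene by transcript length and library size. The steps between low FPKM values gave an inferred depth of 16400000 to 19100000 fragments per library, with 79.9% to 83.5% of the low values within 0.2 of a whole fragment, so that 3 fragments on a transcript of 1000 bases correspond to 0.197 to 0.233 FPKM. The inferred fragment length was 200 to 215 bases in the IVM libraries and 250 to 265 bases in the IVO libraries, a split that runs with the groups, and its part in the results below was not tested. Summed FPKM was 1826738 to 2111776 in the IVM samples and 1560813 to 1643682 in the IVO samples. Log2 fold changes (log2FC) are IVO minus IVM on log2(FPKM + 1), which understates changes of low genes, and a differentially expressed gene (DEG) had a |log2FC| of at least 1 and a limma p of under 0.05 after Benjamini-Hochberg adjustment over the 18818 genes that averaged 1 FPKM or more. The median log2FC of these genes was −0.30 as deposited, and −0.04 after each library was divided by its median ratio to the average library. Over the 13154 Ensembl genes among them, the class that holds all members, these medians were −0.18 and 0.08. Of the DEGs, 3366 were lower and 114 higher in IVO oocytes, and with median-ratio scaling 2102 were lower and 388 higher. All 10 oocyte markers passed the filter, 4 of them as DEGs lower in IVO oocytes, where 17.9% of all tested genes were. Mean FPKM in IVM and IVO oocytes was 189 and 33 for Zp1, 562 and 39.9 for Zp2, 602 and 62.7 for Zp3, and 140 and 35.7 for Nlrp5. The log2FC was below 0 for 9 of the 10 markers, with a median of −0.92. The summed FPKM of the markers was 20796 to 27068 in IVM samples and 21232 to 23865 in IVO samples. Most of this sum came from Oosp1 and Dppa3, which were not DEGs. Of 16 cumulus and granulosa cell markers, 2 passed the filter, the sum was 24.2 to 33.8 FPKM in IVM samples and 31.3 to 36.7 FPKM in IVO samples, and Amh and Areg were at 0 in all 6. Fshr and Cyp19a1 made up nearly all of this sum. Of the 14 markers under the filter, 5 (Gja1, Has2, Nppc, Ptx3 and Tnfaip6) were higher in every IVO sample than in every IVM sample. Their values were at most 0.22 FPKM in IVM samples and 0.07 to 0.86 FPKM in IVO samples, in part below what 3 fragments give. The other markers under the filter were not apart in this direction. Inha, for example, was at 0.86, 0.16 and 0.69 FPKM in IVM samples and at 0.14, 0.41 and 0.09 FPKM in IVO samples. Has2 shares 400 exonic bases with the opposite-strand gene Has2os, at 631.96 to 1795.32 FPKM. These 5 markers moved with the group at a low level, and the share of other such low genes that did so was not counted. The part of any cumulus RNA in the results below was not tested. None of 5 blood markers passed, and their sum was at most 1.04 FPKM in IVM samples and 5.82 FPKM in IVO samples.

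Maturing oocytes control stored mRNAs through sequences near the 3′ end, where a hexamer (AATAAA or ATTAAA) recruits the cleavage and polyadenylation factor and a cytoplasmic polyadenylation element (TTTTAT or TTTTAAT) recruits CPEB. These letters were searched on the transcript strand in the last 100 bases of the canonical GENCODE transcripts, and the sites below are shown because they hold every element match among the members. Of the 9 members whose annotated 3′ UTR was at least 100 bases long, 7 held a hexamer and 3 held an element. Of 19657 such protein-coding transcripts 77.4% and 17.0% did, and of the 9771 whose genes averaged 1 FPKM or more 80.2% and 19.3% did. Gnas and Gja4, the members with the largest |log2FC|, are given beside them and held a hexamer with no element match. Bases are read 5′ to 3′ on the transcript strand, with the matched letters in capitals. In Prkar2b the element lies directly before the hexamer, and in Adcy3 the element and the hexamer share letters. The positions in GRCm39 are chr12:4263491-4263520 (plus strand) for Adcy3, chr3:146435348-146435377 (minus strand) for Prkacb, chr12:32008463-32008492 (minus strand) for Prkar2b, chr2:174188508-174188537 (plus strand) for Gnas and chr4:127205218-127205247 (minus strand) for Gja4, each in the 3′ UTR.
Adcy3: caggactgTTTTATTAAAagctttactcaa
Prkacb: TTTTAATtcatcaataaccgcaaaATTAAA
Prkar2b: gcacacTTTTATAATAAAcgttccaagcat
Gnas: aaaatcAATAAAaATTAAAaatgagcaaaa
Gja4: ttatgatcctcaAATAAAcaggactccatc
The windows of Pde3a and Prkar1a held neither motif, and the annotated 3′ UTR of Gpr3 is only 3 bases long, so it was not counted. A match is a description of the annotated end and not a measured site of binding or cleavage.

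All 10 members were detected in both groups, at levels that spanned from about 1 FPKM for Adcy9 to over 100 FPKM for Gnas. The values of Gpr3 and Adcy3 may hold reads from genes on the opposite strand, as described below. Gja4 shares 686 exonic bases with Gm69784 and Adcy9 1576 with Gm60084, both on the opposite strand and without a listed FPKM. Adcy9 also shares 325 bases with the same-strand pseudogene Gm6142, at 0 to 0.54 FPKM. Of the other members, all but Prkar2b share some exonic bases with another gene. The part of such reads in the member values was not tested. In IVM oocytes, mean FPKM ran from Gnas (117) through Prkar2b (47.8), Prkar1a (32.1), Gja4 (27.5), Gpr3 (13.7), Pde3a (10.9), Prkaca (2.85), Prkacb (1.87) and Adcy3 (1.67) to Adcy9 (1.42). In IVO oocytes the first 6 places were the same, and they were followed by Prkacb, Adcy3, Prkaca and Adcy9. The sample ranges of neighbours were apart between Gnas and Prkar2b, between Prkar2b and Prkar1a, and between Pde3a and the next gene in both groups, and between Prkar1a and Gja4 in IVO oocytes. The ranges of all other neighbours overlapped. This order rests on the listed lengths, which are 1657 bases for Prkar2b and 4507 for Adcy9, against 3466 and 7904 bases for their canonical transcripts. The order at canonical lengths was not tested. Within samples, Gja4 was above Gpr3 in 3 of 3 IVM samples and Adcy3 above Adcy9 in all 6 samples, and the IVM range of Gja4 lay above that of Pde3a. In pooled oocytes, a transcript held by fewer oocytes and a lower level in each oocyte cannot be told apart.

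**Figure D1:**
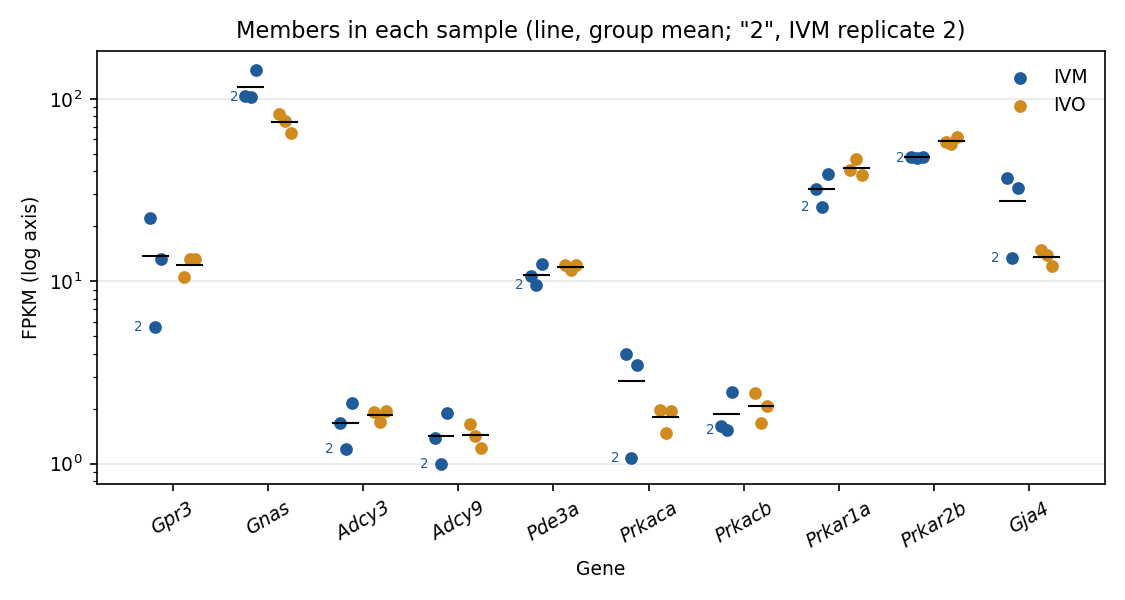
FPKM of the 10 members (log axis) in the 3 IVM and 3 IVO samples, one point per sample with a line at each group's mean and a small 2 beside IVM sample 2. Gnas lies highest, with its IVM samples (102.88 to 143.03) all above its IVO samples (64.71 to 82.93), and the catalytic subunits and cyclases lie lowest, between 0.99 and 3.98.

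No member was a DEG between the groups. In the limma test 0 of 10 passed in either direction, where 17.9% of all tested genes were DEGs lower and 0.606% DEGs higher in IVO oocytes. By the adjusted p alone the count was again 0 of 10, against 21.5% of genes lower and 1.87% higher, and 1 member, Gnas, had an unadjusted limma p of under 0.05. The log2FC was above 0 for 7 members and below 0 for 3 (Gnas, Prkaca and Gja4), with a median of 0.07 (−0.30 over all tested genes). Relative to the median of all tested genes the values ran from −0.55 for Gja4 to 0.69 for Prkar1a, and the same 7 members were above it. The median of the tested Ensembl genes alone was −0.18, which is closer to the members, and the same 7 members were above it too. With only these 13154 genes in the fit, 1972 were DEGs lower and 84 DEGs higher in IVO oocytes. The 95% interval lay within 1 of 0 on the log2 scale for 6 members, and reached past it for Gpr3, Gnas, Prkaca and Gja4. A missed threshold does not show equal levels: these intervals give the differences on log2(FPKM + 1) that 3 samples a group leave possible. For the low members Adcy3, Adcy9, Prkaca and Prkacb this scale understates fold differences, so their intervals do not bound the fold difference. The sample ranges were apart for 1 member lower in IVO oocytes, Gnas, and for 1 member higher, Prkar2b, where 32.6% and 9.62% of all tested genes were apart in these directions.

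**Figure D2:**
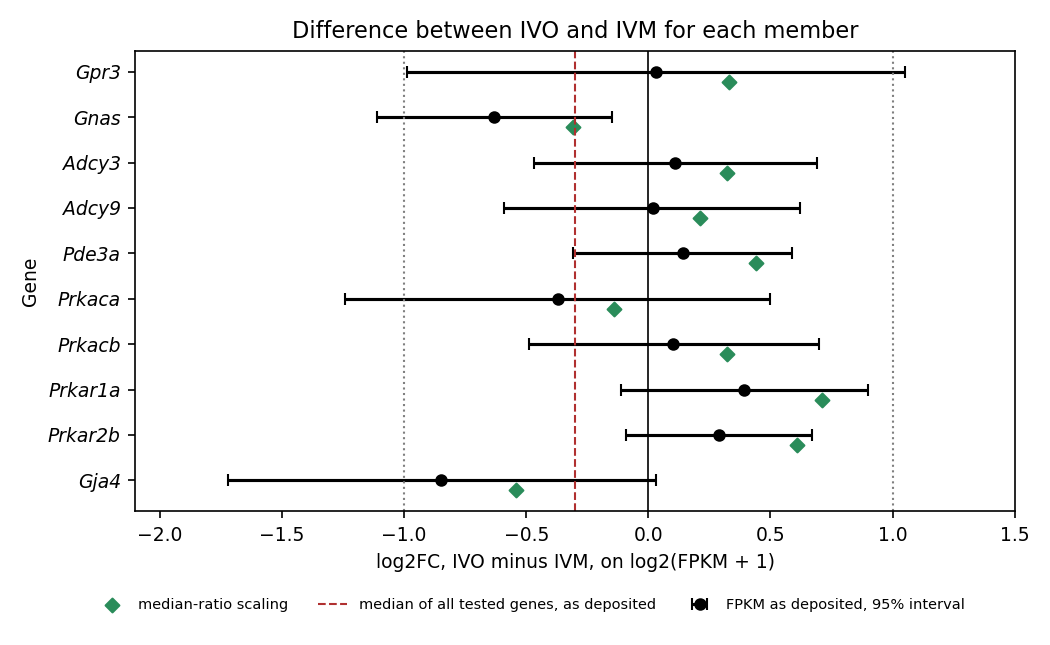
Log2FC (IVO minus IVM) of each member on log2(FPKM + 1), with the 95% interval from limma as bars, the value after median-ratio scaling as a diamond, dotted lines at −1 and 1, and a dashed line at the median of all tested genes (−0.30). Of the 10 bars, the one of Gnas (−1.11 to −0.15) does not reach 0.

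Gpr3 encodes the constitutively active receptor at the head of the pathway (chr4:132936650-132940688, minus strand). It was at 22.22, 5.62 and 13.16 FPKM in IVM samples 1 to 3 and at 10.50, 13.25 and 13.16 FPKM in the IVO samples. The IVM samples lay on both sides of the IVO samples, with a coefficient of variation of 60.8% against 12.7%, and their mean was 13.7 ± 8.31 (SD, n = 3) against 12.3 ± 1.56. The log2FC was 0.03 ± 0.44 (SE, limma adjusted p = 0.969), with an interval from −0.99 to 1.05, so neither direction could be given, and it was −0.45 without IVM sample 2. Its annotated exons share 217 bases with Cd164l2 on the opposite strand, which stood at 446.85 to 570.72 FPKM, and the library kit keeps no strand, so reads from the shared bases cannot be told apart. Of the related receptors, Gpr12 was at 0 to 0.51 FPKM and Gpr6 at 0 in all samples.

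Gnas, on chr2:174126022-174188537 (plus strand), encodes the stimulatory G protein alpha subunit along with other imprinted products, and a gene FPKM does not separate its 28 annotated transcripts. The IVM samples were at 103.93, 102.88 and 143.03 FPKM and the IVO samples at 82.93, 75.76 and 64.71 FPKM. Every IVM sample was above every IVO sample, and the mean was 117 ± 22.9 (SD, n = 3) against 74.5 ± 9.18. The log2FC was −0.63 ± 0.21 (SE), with a limma p of 0.0176 that became 0.0656 after adjustment. Relative to the median of all tested genes the log2FC was −0.33, and with median-ratio scaling it was −0.31 (limma adjusted p = 0.26).

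Adcy3 and Adcy9, which encode adenylyl cyclases that make cyclic AMP, were near the bottom of the expressed range, at the 4th to 18th percentile of tested protein-coding genes. Adcy3 (chr12:4182969-4263527, plus strand) was at 1.66, 1.20 and 2.14 FPKM in IVM samples and at 1.92, 1.68 and 1.95 FPKM in IVO samples. Adcy9 (chr16:4102752-4238428, minus strand) was at 1.38, 0.99 and 1.89 FPKM in IVM samples and at 1.65, 1.42 and 1.21 FPKM in IVO samples. The groups overlapped for both, with a log2FC of 0.11 ± 0.25 (SE, limma adjusted p = 0.786) for Adcy3 and 0.02 ± 0.26 (limma adjusted p = 0.972) for Adcy9, and each value became negative in at least 1 fit that left out a sample. Adcy3 shares 2363 exonic bases with Cenpo, an opposite-strand gene at 8.28 to 24.77 FPKM, so its low values may hold reads from Cenpo, and this share was not tested. About 102 to 182 fragments lay behind each Adcy3 value and 81 to 155 behind each Adcy9 value.

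Pde3a (chr6:141194888-141453174, plus strand), whose product degrades cyclic AMP when meiosis resumes, was among the steadiest members. It was at 10.61, 9.54 and 12.44 FPKM in IVM samples and at 12.29, 11.51 and 12.25 FPKM in IVO samples, each resting on about 2103 to 2873 fragments. The groups overlapped, with a mean of 10.9 ± 1.47 (SD, n = 3) against 12 ± 0.439 and a log2FC of 0.14 ± 0.19 (SE, limma adjusted p = 0.642; interval −0.31 to 0.59). After quantile normalization, which forces all 6 libraries to a single distribution, the log2FC was 0.64 and the limma adjusted p 0.0401.

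The regulatory subunits Prkar1a and Prkar2b were far more abundant than the catalytic subunits of PKA. Prkar2b (chr12:32008448-32111363, minus strand), the type II beta regulatory subunit, was at 47.81, 47.37 and 48.20 FPKM in IVM samples and at 58.02, 56.45 and 61.37 FPKM in IVO samples. All IVO samples were above all IVM samples, and the IVM samples lay within a coefficient of variation of 0.869%. The mean was 58.6 ± 2.51 (SD, n = 3) in IVO oocytes against 47.8 ± 0.415 in IVM oocytes, with a log2FC of 0.29 ± 0.16 (SE, limma adjusted p = 0.242). Its FPKM rests on a listed length of 1657 bases, against 3466 bases for the canonical transcript, and a longer length would lower its level in every sample.

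Prkar1a (chr11:109513434-109560633, plus strand), the type I alpha regulatory subunit, was at 32.18, 25.39 and 38.58 FPKM in IVM samples and at 40.61, 46.98 and 38.26 FPKM in IVO samples. The ranges met only between IVM sample 3 and IVO sample 3, and the log2FC was 0.39 ± 0.22 (SE, limma adjusted p = 0.235). With median-ratio scaling both regulatory subunits passed the adjusted threshold, with a log2FC of 0.71 (limma adjusted p = 0.0454) for Prkar1a and 0.61 (limma adjusted p = 0.0432) for Prkar2b. With this scaling 2 of 10 members passed as higher, where 7.19% of all tested genes did, and with quantile normalization 3 of 10 passed, where 14.6% of genes did. Whether these subunits count as higher in IVO oocytes therefore rested on the scaling.

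Prkaca (chr8:84699575-84723091, plus strand), the catalytic alpha subunit, was at 3.98, 1.07 and 3.49 FPKM in IVM samples and at 1.96, 1.48 and 1.93 FPKM in IVO samples. IVM samples 1 and 3 were above all IVO samples and IVM sample 2 below them all, and the log2FC was −0.37 ± 0.37 (SE, limma adjusted p = 0.519). About 42 fragments lay behind the lowest value and 138 behind the most deeply covered one. Prkacb (chr3:146435311-146518793, minus strand), the catalytic beta subunit, was at 1.60, 1.52 and 2.48 FPKM in IVM samples and at 2.45, 1.66 and 2.08 FPKM in IVO samples, overlapping between the groups. Its log2FC was 0.10 ± 0.25 (SE, limma adjusted p = 0.806).

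Gja4 (chr4:127205214-127207851, minus strand), which encodes connexin 37 of the junction between oocyte and cumulus cells, had the lowest log2FC of the members. It was at 36.64, 13.41 and 32.38 FPKM in IVM samples and at 14.85, 13.97 and 12.14 FPKM in IVO samples. IVM samples 1 and 3 were above all IVO samples, and IVM sample 2 lay within their range. The mean was 27.5 ± 12.4 (SD, n = 3) in IVM oocytes against 13.7 ± 1.38 in IVO oocytes, with a log2FC of −0.85 ± 0.37 (SE, limma adjusted p = 0.146; interval −1.72 to 0.03). Without IVM sample 2 the log2FC was −1.28 (limma adjusted p = 0.0174) and Gja4 became the 1 member called a DEG, in a fit where 13.8% of all tested genes were DEGs lower in IVO oocytes.

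IVM sample 2 thus touched several of these values: it was the lowest of the 3 IVM samples for 10 of 10 members, with a median deviation of −0.26 from the IVM mean on the log2 scale. Over all tested genes it was lowest for 38.3%, and over tested protein-coding Ensembl genes for 46.6%, with a median deviation of −0.10. IVM sample 3 was the highest for 7 members, with a median deviation of 0.28, against 0.10 over tested protein-coding Ensembl genes. The inferred depth of IVM sample 2 was 19000000 fragments and its fragment length 200 bases, the shortest of the 6 libraries, and the part of either in its low member values was not tested. No IVO sample was lowest for more than 5 members.

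Ratios between members within a library are unchanged when the whole library is scaled by 1 factor. Steps that act unequally on genes, such as removal of a length trend, can still change them. In all, 6 ratios were compared by exact two-sided permutation tests, which cannot go below p = 0.1 with 3 samples a group. The summed FPKM of Prkaca and Prkacb was 2.59 to 5.97 and that of Prkar1a and Prkar2b 72.8 to 103 over the 6 samples. Prkar2a, a regulatory subunit that is not a member, was at 9.75 to 14.94 FPKM and is not in the sum. The ratio of the first sum to the second, here the catalytic to regulatory ratio, was 0.0698, 0.0356 and 0.0688 in IVM samples 1 to 3. The IVO values of 0.0447, 0.0304 and 0.0402 overlapped them (exact permutation p = 0.3, adjusted 0.72). Prkaca was 2.49, 0.704 and 1.41 times Prkacb in IVM samples, against 0.8, 0.892 and 0.928 in IVO samples (exact permutation p = 0.4, adjusted 0.72). Gja4 relative to Gpr3 was the one ratio whose groups were apart, with IVM values of 1.65, 2.39 and 2.46 all above the IVO values of 1.41, 1.05 and 0.922. Its log2 difference was −0.94, at the smallest p the design allows (exact permutation p = 0.1, adjusted 0.6). The Gpr3 values in this ratio and in Pde3a to Gpr3 may hold reads from Cd164l2, and that share was not tested. The log2 differences of Prkar1a to Prkar2b (0.11), Adcy3 to Adcy9 (0.14) and Pde3a to Gpr3 (0.10) had exact permutation p values of 0.6, 0.6 and 1, with an adjusted value of at least 0.72 in each case.

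Set against the other members of their families, Adcy3, Adcy9 and Pde3a made up little of the transcript pool. Adcy3 and Adcy9 together were 0.164% to 0.435% of the summed FPKM of 10 adenylyl cyclase genes in IVM samples and 0.628% to 0.856% in IVO samples, while Adcy7 was 92.1% to 94.9% and 84.8% to 88%. Pde3a was 0.265% to 0.399% of the summed FPKM of 20 phosphodiesterase genes in IVM samples and 0.434% to 0.505% in IVO samples. These genes were listed by name and include Pde6d (31.33 to 200.97 FPKM), which encodes no catalytic subunit. A share also moves with the other genes of its sum. Adcy3, Adcy9 and Pde3a overlapped between the groups, while Adcy7, Pde4d and Pde6d were lower in every IVO sample. Pde4d, a cyclic AMP phosphodiesterase, was 90.2% to 93.7% of the phosphodiesterase sum over all samples. Gja4 was 12.4% to 26.2% of the connexin sum, second to Gja5, the connexin 40 gene, at 58.7% to 76.9%. A gene FPKM adds all transcripts of a gene, including any that hold no complete coding sequence, so these shares are of RNA fragments per length and not of enzyme.

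**Figure D3:**
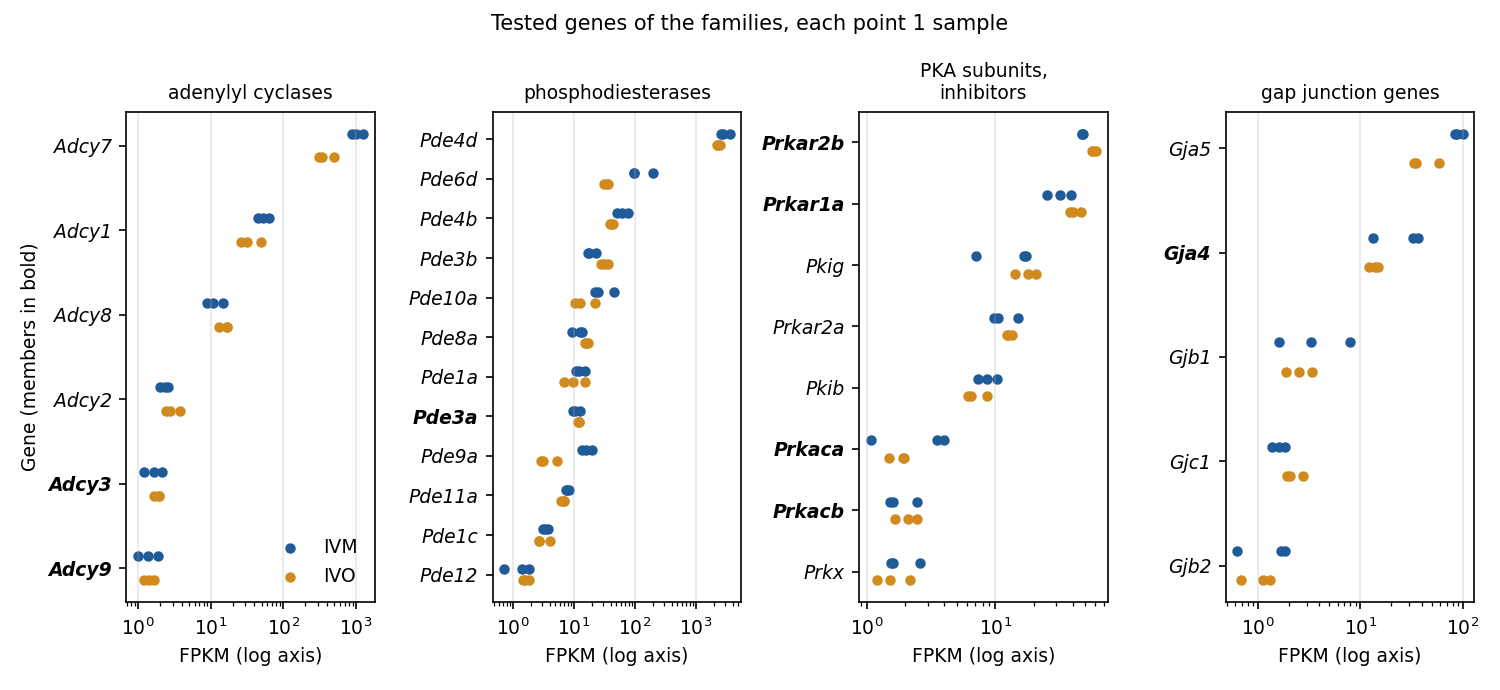
FPKM of the tested adenylyl cyclase, phosphodiesterase, PKA and connexin genes (log axes) in each IVM and IVO sample, one panel per family with the members' names in bold. Adcy7 (313.08 to 1264.19) stands far above Adcy3 and Adcy9, and Pde4d (2242.63 to 3623.50) far above Pde3a.

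Of 125 other genes listed for the pathway, 124 were found by symbol and 72 passed the filter. Of these, 8 were DEGs lower and 1 a DEG higher in IVO oocytes, where 17.9% of all tested genes were DEGs lower and 0.606% DEGs higher. By the adjusted p alone 8 were lower and 4 higher, where 21.5% and 1.87% of all tested genes were. The log2FC was below 0 for 35 of these genes and above 0 for 37, with a median of 0.05.

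Among receptors and G proteins (12 tested beside the members), Gnai1, an inhibitory G protein alpha subunit, was the DEG higher in IVO oocytes. It rose from 18.82, 14.21 and 24.33 FPKM in IVM samples to 44.93, 44.55 and 42.38 FPKM in IVO samples, with a log2FC of 1.19 ± 0.23 (SE, limma adjusted p = 0.0116). Gng5, a gamma subunit and the most abundant gene of this group over the 6 samples, had a mean of 1038 ± 56.5 FPKM (SD, n = 3) in IVM and 1150 ± 5.27 FPKM in IVO oocytes (limma adjusted p = 0.445), and Rgs2 had the higher mean in IVO oocytes (1170 ± 39.4 FPKM). Beside Gnas, the other inhibitory subunits Gnai2 and Gnai3 had a mean of 26.3 ± 13 and 71 ± 6.55 FPKM in IVM oocytes. In IVO oocytes these means were 26.9 ± 3.21 and 97.8 ± 4.81 FPKM, and neither gene passed the test as deposited. With median-ratio scaling the log2FC was 0.49 for Gnai2 (limma adjusted p = 0.38) and 0.78 for Gnai3 (limma adjusted p = 0.0202). With that scaling 7.19% of all tested genes passed the adjusted threshold as higher in IVO oocytes.

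Of 4 other cyclases tested, Adcy7 (chr8:88998882-89059394, plus strand) was a DEG, falling from 1006.44, 1264.19 and 864.83 FPKM in IVM samples to 500.07, 336.78 and 313.08 FPKM in IVO samples. The log2FC was −1.46 ± 0.23 (SE, limma adjusted p = 0.00641). It shares 1505 exonic bases with Brd7 on the opposite strand, which was at 25.44 to 35.96 FPKM. Of 11 other phosphodiesterases tested, Pde6d and Pde9a were DEGs. Pde9a, which degrades cyclic GMP, fell from 16.2 ± 3.08 to 3.76 ± 1.39 FPKM (SD, n = 3), a log2FC of −1.88 (limma adjusted p = 0.00452). Pde6d, which encodes a prenyl-binding carrier protein and no catalytic subunit, fell from 132 ± 59.7 to 34.2 ± 2.62 FPKM, a log2FC of −1.84 (limma adjusted p = 0.00714). Pde4d was at 3002 ± 557 FPKM in IVM and 2341 ± 126 FPKM in IVO oocytes, with no sample overlap and a log2FC of −0.34 (limma adjusted p = 0.173).

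None of 4 other PKA subunit and inhibitor genes tested was a DEG. Among 10 A-kinase anchors, which tether PKA to places in the cell, Akap6 was a DEG lower in IVO oocytes (log2FC −1.09, limma adjusted p = 0.0245), and Akap7, the most abundant over the 6 samples, had a log2FC of 0.39 (limma adjusted p = 0.195). Akap6 was above Akap7 in each IVM sample and below it in each IVO sample. Akap10 passed the adjusted threshold without reaching a log2FC of 1 (0.89, limma adjusted p = 0.019), as did Rapgef4, an exchange factor activated by cyclic AMP (0.88, limma adjusted p = 0.0206), and Cdk1 (0.78, limma adjusted p = 0.0345), and these 3 were picked after their values were seen. Of 4 other connexins tested, Gja5 was a DEG, at 99.71, 83.21 and 88.40 FPKM in IVM samples and 33.27, 34.92 and 58.86 FPKM in IVO samples (log2FC −1.12 ± 0.25 SE, limma adjusted p = 0.0202). Gja1, the connexin 43 gene of cumulus cells, stayed under the filter at 0.02 to 0.05 FPKM in IVM and 0.24 to 0.86 FPKM in IVO samples.

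In the cyclic GMP supply 3 of 10 genes passed the filter and none was a DEG. Npr2, the guanylyl cyclase of cumulus cells, was at 0 in 5 samples and 0.03 FPKM in the other, and Prkg1, a cyclic GMP-dependent kinase, had a log2FC of −0.71 (limma adjusted p = 0.0798). None of 9 other cyclic AMP effectors was a DEG, and Crebbp, the most abundant of them over the 6 samples but not in IVO oocytes alone, had a log2FC of −0.17 as deposited and 0.15 with median-ratio scaling (limma adjusted p = 0.644 and 0.62).

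Of 15 tested genes around the CDK1 switch that PKA acts on, 3 were DEGs lower in IVO oocytes, a share near the 17.9% of all tested genes. Cdc25b, the phosphatase that activates CDK1 and is held inactive by PKA, fell from 10.52, 6.42 and 9.42 FPKM to 1.35, 1.10 and 1.35 FPKM, with a log2FC of −2.09 ± 0.25 (SE, limma adjusted p = 0.0023). Fzr1, an activator of the anaphase-promoting complex, had a log2FC of −1.56 (limma adjusted p = 0.0351), and Ensa, an inhibitor of the phosphatase PP2A, one of −1.03 (limma adjusted p = 0.0328). Ccnb1, the cyclin B1 gene and the most abundant of this group, was at 1667 ± 225 FPKM (SD, n = 3) in IVM and 1990 ± 137 FPKM in IVO oocytes (log2FC 0.26, limma adjusted p = 0.256). Gnai1, Adcy7, Pde6d, Pde9a and Cdc25b were DEGs in all 6 fits that left out 1 sample. Akap6 was one in 2 of these fits, and Gja5, Fzr1 and Ensa in 1 fit each. With median-ratio scaling these 4 missed the adjusted threshold (limma adjusted p of 0.104, 0.0761, 0.0575 and 0.0618 in that order). After quantile normalization Adcy7 had a log2FC of −0.97 (limma adjusted p = 0.0216). With 1 sample left out, the adjusted p stayed under 0.05 for Akap10 and Rapgef4 in 3 of 6 fits and for Cdk1 in 1 fit. With median-ratio scaling these 3 were DEGs higher in IVO oocytes, with a log2FC of 1.20 for Akap10 (limma adjusted p = 0.00961), 1.20 for Rapgef4 (0.0145) and 1.10 for Cdk1 (0.0183).

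**Figure D4:**
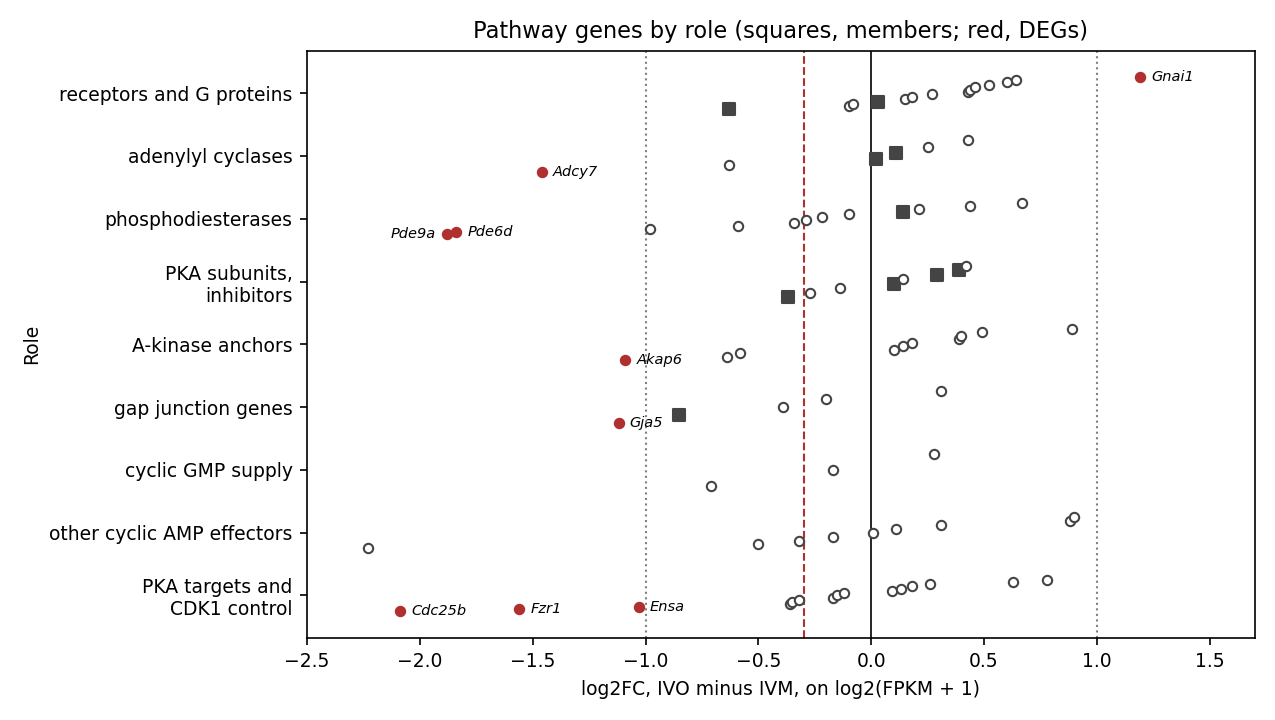
Log2FC (IVO minus IVM) on log2(FPKM + 1) of every tested pathway gene, in rows by role, with members as squares, other genes as circles, DEGs in red, dotted lines at −1 and 1 and a dashed line at the median of all tested genes (−0.30). The squares lie between −0.85 and 0.39, and the named red points run from Cdc25b at −2.09 to Gnai1 at 1.19.

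Across the 6 samples, the tested genes with a mean of at least 5 FPKM whose log2(FPKM + 1) was most like that of Gpr3 were Sec13 (Pearson r = 0.9928), Kdelr2 (0.9894) and Shmt2 (0.9851), out of 8716 candidates. Those most like Pde3a were Tmpo (0.9970), Ppm1a (0.9935) and Igf2bp3 (0.9933). These are the highest of many values over 6 libraries that share depth and group, and are given as a description only. Sec13, for example, was at 300.98, 216.72 and 268.50 FPKM in IVM samples, with the same order of samples as Gpr3.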

How the data were processed

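RNA of pooled MII oocytes (3 IVM and 3 IVO samples) was made into cDNA with a SMART-Seq v4 kit, which primes on poly(A) tails and keeps no strand, and sequenced as paired ends. The authors filtered reads with SeqPrep and Sickle, aligned them with HISAT2 2.1.0 to GRCm39 and obtained the deposited FPKM values with RSEM 1.3.3. The annotation release is not given in the sources used here, and 6493 of the genes are loci assembled from the reads. No counts were used, and depth was worked out from how low FPKM values step. The authors' columns of group means were not used.

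The members and gene lists were chosen with earlier results of these data known. Genes with a mean of at least 1 FPKM were tested in limma 3.58.1 (R 4.3.3) on log2(FPKM + 1), with a trend, group as the only term and two-sided p-values adjusted by Benjamini-Hochberg over 18818 genes. Steps were tested on simulated data. The thresholds (|log2FC| of at least 1, adjusted p under 0.05) are those of the study, which tested counts. All members were named, and in each role group of the wider list up to 3 DEGs and the most abundant gene. Positions, overlaps and 3′ ends came from GENCODE vM39 on GRCm39. The submitters call the samples of a group biological replicates. Same-numbered IVM and IVO samples did not deviate together over the tested genes (r = −0.0618, −0.0176 and −0.107), and the main fit used no pairing. Such correlations cannot show whether same-numbered samples were collected or prepared together. The alternatives were other pseudocounts, filters, scalings, a replicate block, removal of a length trend, Ensembl genes only, and leaving out each sample.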

Additional observations from a re-analysis of the deposited data

How the results depend on the processing

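No member was a DEG under any alternative that kept all 6 samples. The count of members lower in IVO oocytes, as DEGs or by the limma adjusted p alone, ranged from 0 to 1 when samples were left out in turn, the 1 being Gja4 without IVM sample 2. Members higher by the adjusted p numbered 0 as deposited, 2 with median-ratio scaling and 3 after quantile normalization. For the wider list, 8 DEGs lower in IVO oocytes became 4 with median-ratio scaling, with equal sums per library or with the length trend removed, 3 with quantile normalization, and 4 to 6 with 1 sample left out. Its 1 DEG higher became 4 with median-ratio scaling, equal sums or the length trend removed, 9 with quantile normalization, and 1 to 2 with a sample left out. Over all tested genes the DEGs higher numbered 114 as deposited, 388 with median-ratio scaling, 394 with equal sums, 557 with the length trend removed and 1044 after quantile normalization, and the DEGs lower 3366, 2102, 2131, 1511 and 1620. With the replicate number as a block, the list had 5 DEGs lower, and 3 when the length trend was also removed. The block moved the total of DEGs from 3480 to 2991 and changed no call of a member. The sign of the log2FC changed for Prkaca with quantile normalization (0.06), and with samples left out for Gpr3 (−0.45 to 0.45), Adcy3 (−0.02 to 0.24) and Adcy9 (−0.12 to 0.15). Crebbp was at 0.15 with median-ratio scaling, 0.31 with quantile normalization, 0.16 with equal sums, 0.05 with the length trend removed, with or without the block, and −0.28 to 0.02 with a sample left out. Among the ratios, the log2 difference ranged with samples left out from −0.04 to 0.25 for Prkar1a to Prkar2b, from −0.01 to 0.22 for Adcy3 to Adcy9, and from −0.37 to 0.55 for Pde3a to Gpr3. It kept its sign for Prkaca to Prkacb (−0.19 without IVM sample 1, −1.10 without IVM sample 2), for the catalytic to regulatory ratio (−0.87 without IVM sample 2 to −0.38 without IVM sample 1) and for Gja4 to Gpr3 (−1.12 to −0.80). The cause of these changes was not tested. At this depth Prkaca, Prkacb, Adcy3 and Adcy9 rest on few fragments, and FPKM without counts gives no counting interval.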
